A study of Mus musculus with 12 samples.

Results

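The delayed rectifier potassium channel genes Kcnq1, Kcne1 and Kcnh2 were followed through cardiomyocyte-restricted deletion of Med30, a core subunit of the Mediator complex that links transcription factors to RNA polymerase II. The 3 genes were taken by name from the 20775 genes listed in each of 2 mouse RNA-seq tables. All 3 had a mean RPKM (reads scaled to transcript length in kilobases and to the size of the library) above 1 in both tables, which was the condition for testing. Each table held 3 knockout and 3 control (Ctrl) samples, 12 samples in all.

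In the embryonic table, hearts at E10.5 that carried Tnnt-Cre and homozygous floxed Med30 (cKO) were set against Cre-negative Med30 f/f littermates. In the adult table, cardiomyocytes were isolated at 4 weeks after tamoxifen from Med30 f/f mice with the αMHC-MerCreMer transgene (icKO), and Ctrl cells came from tamoxifen-treated Med30 f/f mice that lacked Cre. The labels call the Ctrl samples wild type and give the adult mice as C57BL/6 of 3 months. Per the study's methods, the first exon of Med30 was flanked by loxP sites in every group, so Ctrl and knockout shared the floxed alleles, and Cre was present only in the knockouts. In these RNA samples an effect of Cre itself and the loss of Med30 therefore cannot be told apart. The study reports neither deaths nor heart dysfunction in tamoxifen-treated αMHC-MerCreMer mice that lacked a floxed allele. Such mice are not among the RNA samples. Tnnt-Cre acts in developing cardiomyocytes while the E10.5 samples were whole hearts, so other cardiac cell types kept Med30. The labels do not say whether samples of a group came from separate animals or from pooled hearts, and the p-values then measure only the spread between these samples, which may be technical.

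The delayed rectifier currents repolarize the cardiac action potential. The slow component, IKs, flows through tetramers of KCNQ1, the pore-forming alpha subunit, joined by KCNE1, a single-pass beta subunit that slows activation and enlarges the current. The rapid component, IKr, flows through KCNH2 (the ERG channel), and inherited loss of function in any of these genes is a known cause of long QT syndrome in people. Adult mouse ventricle is known to repolarize mainly by other potassium currents, whereas IKr is prominent in the embryonic mouse heart.

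Kcnq1 lies on the plus strand at chr7:143106362-143427042 (GRCm38, GENCODE release M21), and its longest coding transcript has 3029 bases in 16 exons. Kcne1 lies on the minus strand at chr16:92345982-92359468, with 3174 transcript bases in 2 exons, of which only 387 are coding and all lie in 1 exon. Kcnh2 lies on the minus strand at chr5:24319589-24351604, with 4221 transcript bases in 15 exons. The stretches printed here show what tells the 3 transcripts apart: each alpha subunit has its own selectivity filter, the loop that lets potassium through the pore, and the beta subunit has none. Capitals mark the 18 bases of the filter codons in Kcnq1 and Kcnh2 and the start codon in Kcne1. All 3 are coding strand, 5′ to 3′, from the GENCODE M21 transcripts.
Kcnq1: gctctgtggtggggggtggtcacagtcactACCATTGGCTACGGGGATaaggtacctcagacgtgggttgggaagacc
Kcnh2: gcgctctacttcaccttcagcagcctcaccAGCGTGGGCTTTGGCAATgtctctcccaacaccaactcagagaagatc
Kcne1: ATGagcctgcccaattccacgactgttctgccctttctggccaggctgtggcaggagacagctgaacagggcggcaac
The Kcnq1 stretch joins 2 exons within chr7:143184525-143191479, and its capitals start at codon 311 of 668. The Kcnh2 stretch lies in 1 exon at chr5:24325522-24325599, with the capitals starting at codon 626 of 1162. The Kcne1 stretch lies at chr16:92348877-92348954 and opens a protein of 129 codons. The Kcnq1 capitals hold the glycine-tyrosine-glycine codons of most potassium channels, whereas those of Kcnh2 hold glycine-phenylalanine-glycine. The capitals of the 2 alpha subunits differ at 7 of 18 bases.

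Med30 itself checked the labels. At E10.5 its RPKM was 10.555, 13.316 and 11.337 in Ctrl and 1.376, 2.023 and 1.004 in cKO. At 4 weeks it was 7.661, 7.454 and 7.660 in Ctrl and 3.812, 3.161 and 1.825 in icKO. Every knockout sample was below every Ctrl sample of its table. The estimated depth was 12 to 20.04 M reads per sample, which placed 67 to 684 reads behind each Kcnq1 value, 12 to 239 behind each Kcne1 value and 220 to 1813 behind each Kcnh2 value. These read numbers were inferred from the steps between low RPKM values, with the depth chosen to bring those values nearest to whole reads. At that depth 64.7 to 72.7% of them came within 0.1 read of a whole number. The 20% given by chance applies to a depth that was not fitted, so the closeness is no independent check. The read numbers also assume the longest coding transcript of each gene and are approximate. Over all genes tested the median log2 fold change was -0.13 at E10.5 and 0.57 at 4 weeks, and a member's change is therefore also given relative to that median.

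The Kcnq1 level was lower in the knockout samples at both stages, and the difference passed the test at 4 weeks. At E10.5 its RPKM was 2.933, 2.516 and 3.523 in Ctrl and 1.883, 1.744 and 1.611 in cKO. The highest cKO sample was 0.633 RPKM below the lowest Ctrl sample, so the groups did not overlap. The means were 2.99 ± 0.506 in Ctrl and 1.75 ± 0.136 in cKO (SD, n = 3). The log2 fold change was -0.73 ± 0.19 (SE) with an adjusted p of 0.0612 in limma's moderated test on log2(RPKM + 0.1), which does not pass the threshold of 0.05. Relative to the median gene the value was -0.60.

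In adult cardiomyocytes Kcnq1 fell by a larger amount. Its RPKM was 11.555, 12.849 and 13.106 in Ctrl and 4.185, 4.679 and 4.580 in icKO. The groups were separated by 6.876 RPKM, while the samples within each group differed by at most 1.13-fold. The means were 12.5 ± 0.831 in Ctrl and 4.48 ± 0.261 in icKO (SD, n = 3), a 2.79-fold difference. The log2 fold change was -1.46 ± 0.10 (SE; limma, adjusted p = 1.99e-06), or -2.03 relative to the median gene. Kcnq1 had the smallest relative spread of the 3 genes in both groups of the adult table.

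Kcne1, the beta subunit of IKs, was the gene of the 3 that passed the test at both stages. At E10.5 its RPKM was 3.763, 2.245 and 3.073 in Ctrl and 1.457, 0.896 and 1.057 in cKO. No cKO sample reached a Ctrl sample, although Ctrl samples differed from each other by up to 1.68-fold. The means were 3.03 ± 0.760 and 1.14 ± 0.289 (SD, n = 3), and the log2 fold change was -1.33 ± 0.26 (SE; limma, adjusted p = 0.0280), or -1.20 relative to the median gene. Ranked from the largest fall, Kcne1 stood 37th of 10885 genes tested at E10.5.
That call was lost in some of the fits that left out 1 library. In those fits 19 to 49 of all genes were lower with an adjusted p under 0.05 in limma, against 376 with every sample. Without Ctrl replicate 1 the adjusted p was 0.103, without Ctrl replicate 3 it was 0.111, without cKO replicate 1 it was 0.0517 and without cKO replicate 2 it was 0.0836, while the log2 fold change stayed between -1.53 and -1.17 over all 6 samples left out in turn. With a pseudocount of 1 the log2 fold change was -0.91, and with no filter on low values the adjusted p was 0.0633.

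At 4 weeks the Kcne1 RPKM was 1.697, 1.382 and 2.494 in Ctrl and 0.542, 0.283 and 0.316 in icKO. The highest icKO sample, at 0.542, lay under the lowest Ctrl sample, at 1.382, so the groups did not overlap. The means were 1.86 ± 0.573 and 0.380 ± 0.141 (SD, n = 3), a 4.88-fold difference. The log2 fold change was -2.03 ± 0.30 (SE; limma, adjusted p = 0.000246), or -2.59 relative to the median gene, and a pseudocount of 1 shrank it to -1.04 because the icKO level was low. Without Ctrl replicate 3, the highest sample, the mean RPKM of Kcne1 fell under the filter. With that sample left out and no filter, a setting added after seeing the data, the log2 fold change was -1.80 (limma, adjusted p = 0.00168).

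Kcnh2, the alpha subunit of IKr, was the most abundant of the 3 genes in Ctrl samples of both tables. At E10.5 its RPKM was 12.592, 14.390 and 16.660 in Ctrl and 11.963, 12.692 and 11.221 in cKO. The groups overlapped, since cKO replicate 2 lay above Ctrl replicate 1. The means were 14.55 ± 2.04 and 11.96 ± 0.736 (SD, n = 3), and the log2 fold change of -0.27 ± 0.13 (SE; limma, adjusted p = 0.231) did not pass the test. Relative to the median gene it was -0.14, and 30.1% of the genes tested at E10.5 ranked as low or lower.

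In adult cardiomyocytes Kcnh2 had the most negative log2 fold change of the 3 genes. Its order against Kcne1 was not resolved, since the Kcne1 to Kcnh2 ratio overlapped between the groups. Its RPKM was 24.582, 24.439 and 18.642 in Ctrl and 3.074, 3.458 and 5.094 in icKO. The lowest Ctrl sample stood 13.548 RPKM above the highest icKO sample. The means were 22.55 ± 3.39 and 3.88 ± 1.07 (SD, n = 3), a 5.82-fold difference, and the log2 fold change was -2.53 ± 0.19 (SE; limma, adjusted p = 3.29e-06), or -3.10 relative to the median gene. It ranked 170th of 9517 genes from the largest fall.

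**Figure D1:**
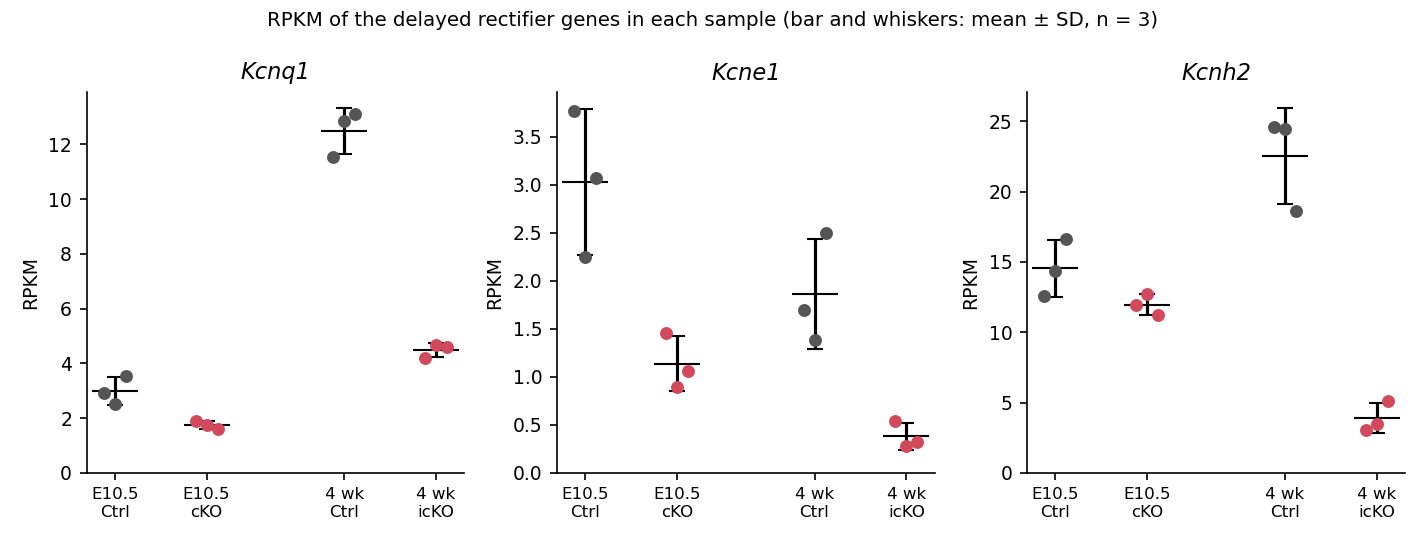
RPKM (vertical axes, from 0) of Kcnq1, Kcne1 and Kcnh2 in every sample of the 4 groups, with grey points for Ctrl, red points for knockout, and a bar with whiskers for the mean ± SD of 3 samples. The knockout points lie below all Ctrl points in each panel and stage except for Kcnh2 at E10.5, where 12.692 in cKO lies above 12.592 in Ctrl.

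A gene was called lower when its adjusted p was under 0.05 and its log2 fold change under -1. At E10.5, 1 of the 3 genes (Kcne1) was called lower, against 0.542% of all 10885 genes tested. At 4 weeks all 3 were called lower, against 8.45% of 9517 genes. Every knockout sample was below every Ctrl sample for 2 of the 3 genes at E10.5, where 22.6% of all genes tested had that arrangement, and for 3 of 3 at 4 weeks, where 18.9% had it. The median log2 fold change of the 3 genes was -0.73 at E10.5 beside -0.13 for all genes, and -2.03 at 4 weeks beside 0.57. All 3 remained called lower at 4 weeks under the 3 other scalings, where Kcnq1 lay between -2.02 and -1.70, Kcne1 between -2.51 and -2.24 and Kcnh2 between -3.09 and -2.77. Of all 9517 genes, 1511 were called lower with median-ratio size factors and 1341 with quantile normalization. When the 20 most abundant genes were left out of the total, 1055 were.

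**Figure D2:**
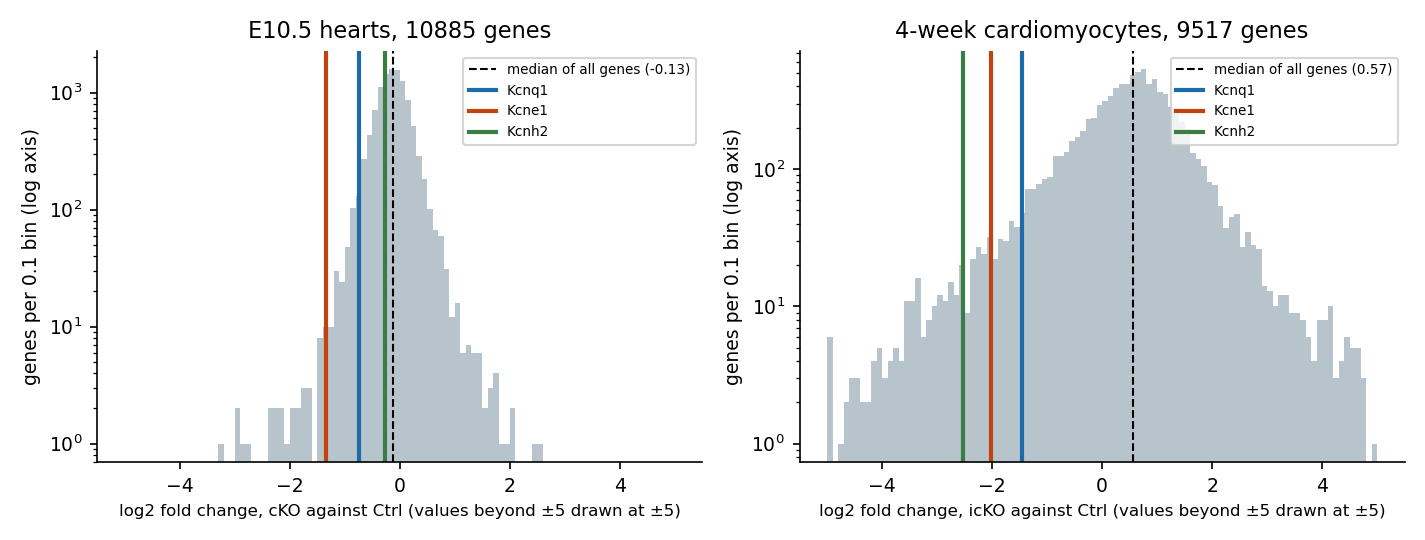
Histograms of the log2 fold change of all genes tested (horizontal axis, values beyond ±5 drawn at ±5; vertical axis, genes per bin on a log scale), with coloured lines for the 3 genes and a dashed line for the median gene. At E10.5 Kcnh2 at -0.27 lies beside the median of -0.13, whereas at 4 weeks all 3 lines lie to the left of the median of 0.57.

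The order of the levels was compared on the RPKM scale, which is per transcript length. In E10.5 Ctrl hearts Kcnh2 stood first, and Kcne1 and Kcnq1 did not differ beyond their spread (3.03 and 2.99 RPKM). In adult Ctrl cardiomyocytes the order was Kcnh2, Kcnq1 and Kcne1 with no overlap between neighbours. In icKO cardiomyocytes Kcnq1 and Kcnh2 overlapped (4.185 to 4.679 against 3.074 to 5.094 RPKM), and Kcne1 stayed last. Followed across the groups, Kcnq1 was highest in adult Ctrl, then icKO, E10.5 Ctrl and cKO, with no overlap between neighbours. Kcne1 was highest in E10.5 Ctrl, but its neighbours overlapped as far as cKO, and only icKO stood apart below them. Kcnh2 was highest in adult Ctrl, with overlapping E10.5 Ctrl and cKO samples in the middle and icKO lowest. The mean Ctrl level was 4.18-fold higher in the adult than in the embryonic table for Kcnq1 and 1.55-fold higher for Kcnh2, while for Kcne1 it was 1.63-fold higher in the embryonic table. The tables hold different material, whole hearts and isolated cardiomyocytes, and these levels were not tested against each other.

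The plain ratio of one transcript to another within a sample does not depend on how the library was scaled. The log2 ratios were taken of RPKM + 0.1, so they keep some dependence on scaling where values are low. At E10.5 the Kcne1 to Kcnq1 ratio was 1.28, 0.892 and 0.872 in Ctrl and 0.774, 0.514 and 0.656 in cKO, so every cKO sample was lower. The difference of the mean log2 ratios was -0.60, with an exact two-sided permutation p of 0.1, the smallest that 3 against 3 samples allow. At 4 weeks this ratio was 0.147, 0.108 and 0.190 in Ctrl and 0.130, 0.0605 and 0.0690 in icKO. The groups overlapped, and the difference of -0.57 had an exact two-sided permutation p of 0.2 and turned to 0.26 with a pseudocount of 1.
The Kcnh2 to Kcnq1 ratio moved in opposite directions at the 2 stages. At E10.5 it was 4.29, 5.72 and 4.73 in Ctrl and 6.35, 7.28 and 6.97 in cKO, all cKO samples above all Ctrl samples. At 4 weeks it was 2.13, 1.90 and 1.42 in Ctrl and 0.735, 0.739 and 1.11 in icKO, all icKO samples below all Ctrl samples. The differences of the mean log2 ratios were 0.46 and -1.07, each with the smallest exact two-sided permutation p of 0.1.
The Kcne1 to Kcnh2 ratio was lower in all cKO samples at E10.5 (difference of mean log2 ratios -1.06, exact two-sided permutation p = 0.1). At 4 weeks the groups overlapped, with a difference of 0.51 and an exact two-sided permutation p of 0.4. With 3 samples a group no ratio could reach 0.05.

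**Figure D3:**
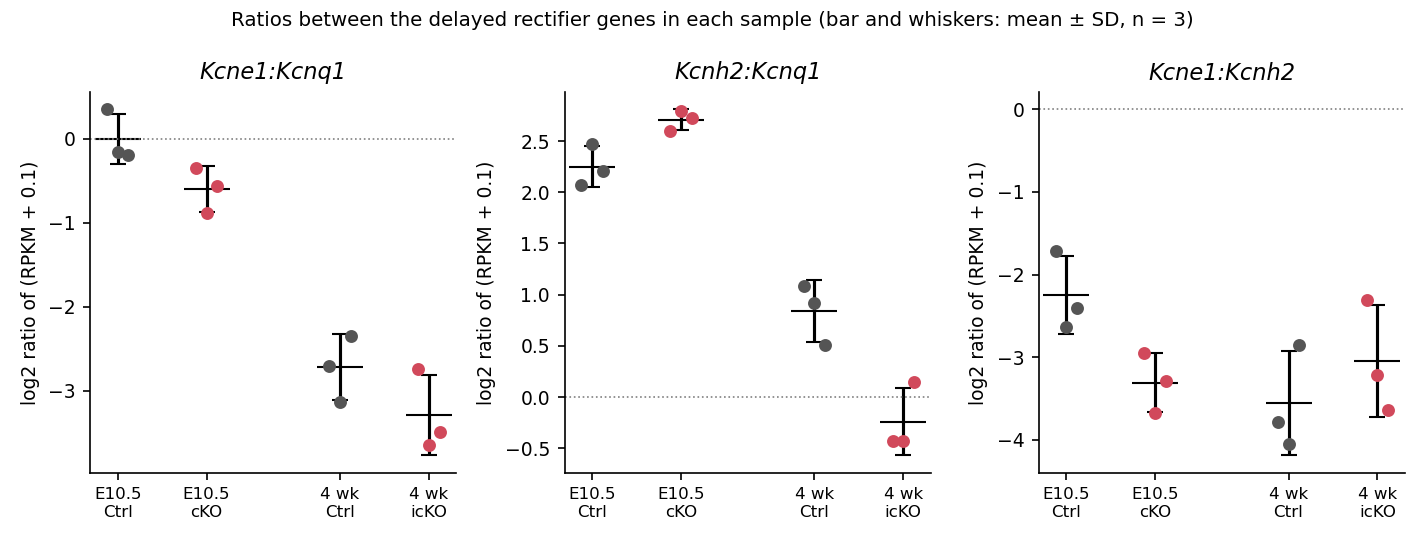
Log2 ratio of RPKM + 0.1 between pairs of the 3 genes (vertical axes) in every sample, grey for Ctrl and red for knockout, with mean ± SD of 3 samples. In the Kcnh2:Kcnq1 panel the cKO points lie above Ctrl at E10.5 (mean 2.71 against 2.25) and the icKO points below Ctrl at 4 weeks (mean -0.24 against 0.84).

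Whether the change in the knockout differed between stages was tested as the difference of the log2 fold changes, 4 weeks minus E10.5, in 1 limma fit over the 12 samples with each contrast kept within its own table. The difference was -2.26 ± 0.25 (SE) for Kcnh2, with an adjusted p of 4.24e-06, and -0.73 ± 0.19 for Kcnq1, with an adjusted p of 0.00383. For Kcne1 it was -0.69 ± 0.41, with an adjusted p of 0.151, which does not show that the effect was alike at both stages. An adjusted p under 0.05 with a more negative change at 4 weeks was found for 2 of the 3 genes and for 9.29% of the 8909 genes tested at both stages. The median difference over those genes was 0.69 in the positive direction. The Kcne1 value depended on the scaling: it was -1.29 (adjusted p = 0.0148) with median-ratio size factors, -1.18 (0.0256) with quantile normalization and -1.07 (0.0350) when the 20 most abundant genes were left out of the total.

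**Figure D4:**
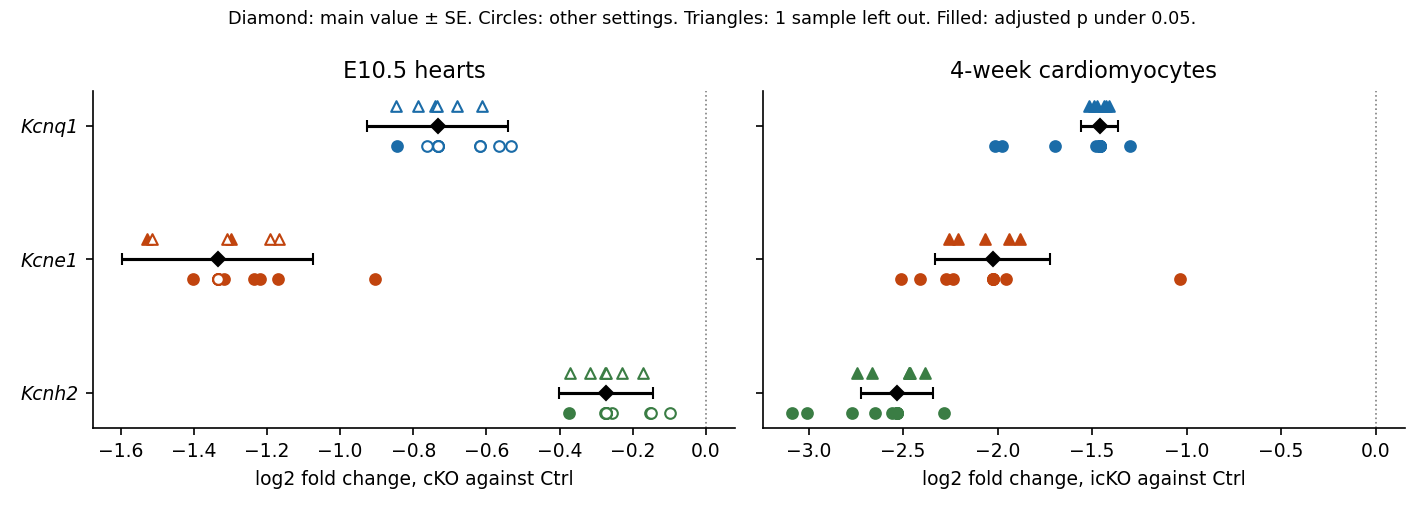
Log2 fold change of each gene (horizontal axes) as reported (diamond with SE), under other settings (circles) and with 1 sample left out (triangles), filled where the adjusted p was under 0.05. The 4-week symbols are all filled, whereas at E10.5 the Kcnq1 and Kcnh2 symbols are open except for 1 circle each and Kcne1 has both kinds.

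Other alpha and beta subunits of these families were all under the filter in the adult table. Of the 8 other KCNQ and KCNE genes, 2 were tested at E10.5, none was called, and none was tested at 4 weeks. Kcnq5, a KCNQ alpha subunit best known from neurons, had a mean RPKM of 2.98 ± 0.420 in E10.5 Ctrl and 3.39 ± 0.455 in cKO (SD, n = 3). Kcne5 (listed as Kcne1l), another KCNE beta subunit, had 3.55 ± 0.334 and 2.66 ± 1.16. Kcnq3, a neuronal partner of KCNQ5, had 0.577 in Ctrl and 1.09 in cKO and was under the filter. Of the 7 other EAG, ERG and ELK channel genes, Kcnh7, an ERG-type alpha subunit, was the only one tested, and only at E10.5. Its level was 4.44 ± 0.588 RPKM in Ctrl and 5.56 ± 0.273 in cKO (SD, n = 3), with every cKO sample above every Ctrl sample, and the log2 fold change of 0.32 did not pass (adjusted p = 0.198 in limma). At 4 weeks Kcnh7 was at 0.0050 RPKM in Ctrl and 0.0107 in icKO.

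Partners of the IKs complex included both directions at 4 weeks and no calls at E10.5. Of the 12 genes on this list (calmodulin genes, the anchoring protein AKAP9, and the kinase, phosphatase, phosphodiesterase and cyclase tied to it), 11 were tested at each stage. At 4 weeks 2 were called lower (8.45% of all genes tested were), and the 11 genes had a median of 0.55 (log2 fold change) beside 0.57 for all genes. The 2 called lower were Pde4d, the phosphodiesterase that breaks down cAMP near the channel (8.89 ± 0.885 RPKM in Ctrl and 3.44 ± 0.664 in icKO), and Adcy9, an adenylyl cyclase that makes cAMP (7.33 ± 0.513 and 3.41 ± 0.117; SD, n = 3). Calm2 and Calm3, which encode calmodulin, a constitutive subunit of KCNQ1, were called higher, as were 28.0% of all genes tested at 4 weeks. Calm2 went from 19.3 ± 1.20 to 80.7 ± 9.74 RPKM and Calm3 from 37.1 ± 1.75 to 107.3 ± 13.7. With median-ratio size factors Calm3 was at 0.96 and no longer called. With the other 2 scalings it was called. Prkacb, a catalytic subunit of protein kinase A, was called higher at 1.14 as deposited and was not called under any of the 3 other scalings.

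Of 21 chaperones, ubiquitin ligases and trafficking or binding partners, 1 was called lower at E10.5 (Hspa8, the constitutive HSC70 chaperone that acts on KCNH2 folding), against 3 lower and 4 higher at 4 weeks. Of all genes tested, 0.542% were called lower at E10.5, and at 4 weeks 8.45% were called lower and 28.0% higher. Hspa8 was at 267.5 ± 3.52 RPKM in Ctrl and 124.1 ± 48.7 in cKO at E10.5, and the call was lost under quantile normalization (log2 fold change -0.92). At 4 weeks Fhl2, a LIM protein reported to bind KCNE1, went from 634.4 ± 114.5 to 52.9 ± 7.14 RPKM. Tcap (telethonin), a sarcomere protein reported to bind KCNE1, went from 918.1 ± 29.4 to 162.3 ± 45.8. Rnf207, a ubiquitin ligase family protein linked to KCNH2 and the QT interval, went from 14.1 ± 2.96 to 2.84 ± 0.203. Hsp90aa1, the inducible HSP90 chaperone used in KCNH2 maturation, went the other way, from 14.3 ± 1.23 to 163.9 ± 15.03 RPKM, and its log2 fold change was 3.51 ± 0.10 (SE; adjusted p = 8.11e-08 in limma). Fkbp8, a co-chaperone, Rab5a, an endosomal GTPase, and Pikfyve, an endosomal lipid kinase, were called higher with log2 fold changes of up to 1.27. None of these latter 3 was called with median-ratio size factors or quantile normalization. The median of the list was -0.24 beside -0.13 for all genes at E10.5, and 0.69 beside 0.57 at 4 weeks.

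Most other potassium channel subunits of cardiac repolarization that were tested had lower levels at 4 weeks. Of 18 listed, 7 were tested at E10.5 with no call, and 13 were tested at 4 weeks with 10 called lower and none called higher (percent of all genes called lower, 8.45). The 13 tested at 4 weeks had a median log2 fold change of -2.23 beside 0.57 for all genes, with 12 below 0 and 1 above. The listed genes under the filter at 4 weeks had log2 fold changes of 0.63 to 1.22 when no filter was applied. The largest falls were those of Kcnip2, the KChIP2 subunit of the transient outward channel, from 58.4 ± 8.69 RPKM to 0.152 ± 0.113, Kcnv2, a silent Kv subunit, from 3.24 ± 0.0456 to 0.188 ± 0.0646, Abcc9, the SUR2 subunit of the ATP-sensitive channel, from 55.1 ± 4.54 to 4.97 ± 2.46, and Kcnj5, a subunit of the acetylcholine-gated channel, from 13.6 ± 1.96 to 1.22 ± 0.340. These 10 genes were also called lower under each of the 3 other scalings, where 1055 to 1511 of all 9517 genes were. The 3 delayed rectifier genes, at -1.46 to -2.53, lay within the range of this list.

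**Figure D5:**
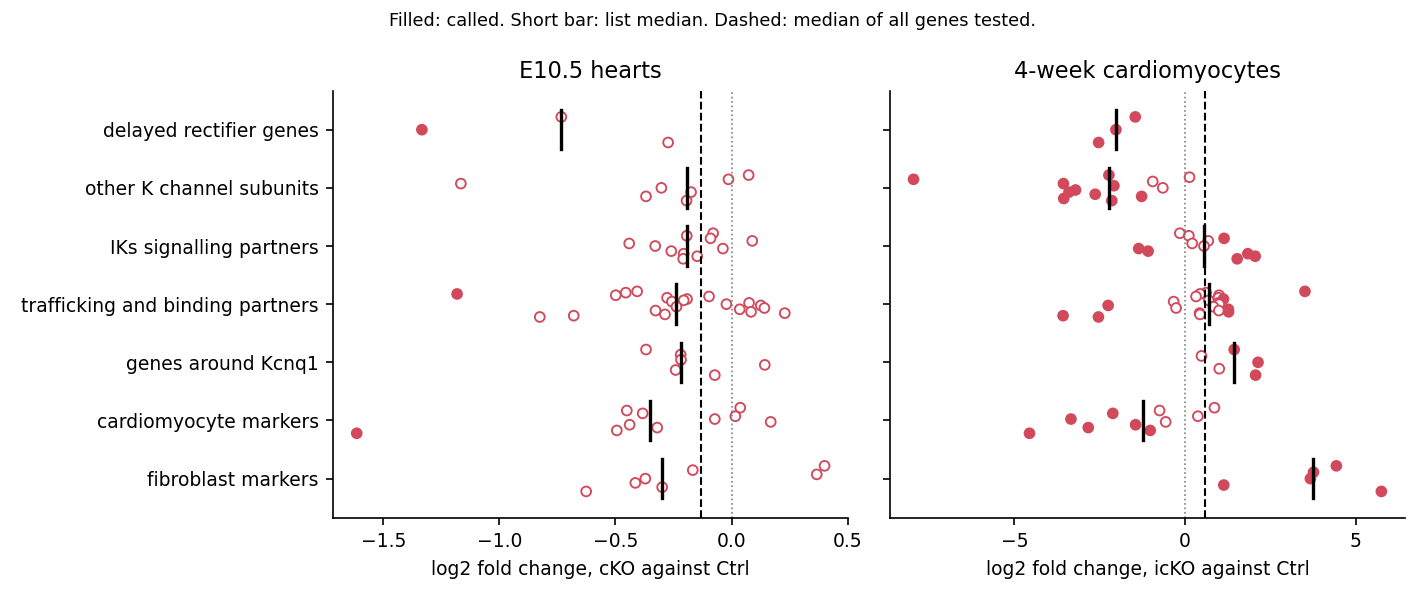
Log2 fold change (horizontal axes) of each gene tested in the delayed rectifier set, the lists of related genes, and the cardiomyocyte and fibroblast markers, filled where called, with a short bar at each list's median and a dashed line at the median of all genes. At 4 weeks the delayed rectifier genes (median -2.03) and the other potassium channel subunits (median -2.23) lie to the left of the dashed line at 0.57, and the fibroblast markers (median 3.76) to its right.

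Markers of other cell types moved in the same samples. In the adult table the summed RPKM of 8 fibroblast markers was 5.03 to 8.39 in Ctrl and 60.4 to 87.5 in icKO, 5 of the 5 tested were called higher (4 under each of the 3 other scalings), and none was at 0 in every sample. Of all 9517 genes, 28.0% were called higher as deposited, and 1053 to 1851 genes under those scalings. The summed RPKM of 10 cardiomyocyte markers was 23300 to 24600 in Ctrl and 9860 to 12200 in icKO. Of these 10 markers 6 were called lower and none higher (8.45% and 28.0% of all genes tested). Under quantile normalization, however, 4 were called lower and 2 higher, beside 1341 and 1213 of all 9517 genes. Myh6, the adult ventricular myosin heavy chain, went from 4381 to 439.8 RPKM. Actn2 had 626.3 in Ctrl and 1139 in icKO and Tnnc1 1602 and 2085, with every icKO sample above every Ctrl sample and log2 fold changes of 0.86 and 0.37, short of the call, and Tnnc1 turned to -0.19 with median-ratio size factors.
Other marker lists also had higher sums in adult icKO samples. The mural (smooth muscle and pericyte) sum was 48.0 to 73.0 in Ctrl and 243 to 382 in icKO with 4 of 6 genes tested called higher, the atrial sum 104 to 178 and 713 to 1190 with 2 of 3 called, and the macrophage sum 2.88 to 4.90 and 7.07 to 10.2 with 2 of 3 called, against 28.0% of all genes. With median-ratio size factors 3 mural, 2 atrial and no macrophage genes were called higher, beside 1053 of all 9517 genes. The 2 atrial genes called were Nppa and Myl4, and Myl7 was not called. Per the study, atrial natriuretic factor (Nppa) was a fetal gene marker raised in icKO hearts. Of the 6 mural genes tested, Acta2 had a log2 fold change of -0.39 and the others were above 0. Whether these rises came from other cell types was not tested. The endothelial sums overlapped (10.4 to 28.5 and 26.5 to 48.2, 1 of 7 called higher), as did the epicardial, erythroid and nerve sums. Of the erythroid list 2 genes were tested and 0 called, and no epicardial or nerve gene passed the filter for testing.
At E10.5 the cardiomyocyte marker sum was 4870 to 6490 in Ctrl and 4080 to 4800 in cKO, without overlap. Of the 10 genes tested 1, Pln, was called lower (0.542% of all genes), also under the 3 other scalings. The mural sum was 504 to 611 in Ctrl and 686 to 839 in cKO, without overlap, and 1 of 6 genes tested, Cnn1, was called higher (0.239% of all genes). The macrophage sum was 8.75 to 11.5 and 4.98 to 6.82, also without overlap, and Lyz2, 1 of 2 tested, was called lower, though not under the 3 other scalings. The fibroblast (90.6 to 166 and 116 to 133), erythroid (231 to 768 and 364 to 2160), endothelial, epicardial, atrial and nerve sums overlapped between the groups, with no call.
In such bulk samples fewer cardiomyocytes and less RNA of a gene per cardiomyocyte cannot be told apart. The part of these marker shifts in the 3 genes' values was not tested.

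The 3 genes lie on different chromosomes, and their neighbours were examined for changes at the same loci. Kcnq1 sits in an imprinted domain, and its introns and exons are crossed by the antisense transcript Kcnq1ot1 (chr7:143203458-143296549, minus strand), which shares 121 exon bases with it. Kcnq1ot1 was not analysed here, and since the sources used here do not state whether counting used strand, reads from those bases cannot be told apart. Of the 10 other genes of that domain that were listed, 6 were tested at E10.5 with no call, and 5 at 4 weeks with 3 called higher and none lower, where 28.0% of all genes tested were called higher. Tssc4, 35.3 kb from Kcnq1 and known from spliceosome assembly, went from 2.94 ± 0.388 to 13.2 ± 1.17 RPKM in icKO. Cars, a cysteinyl-tRNA synthetase, went from 3.42 ± 0.168 to 14.7 ± 2.39. Cdkn1c, a cell cycle inhibitor 31.3 kb away, was called at 1.44 but had 5.438 RPKM in icKO replicate 1 against 1.757 and 1.359 in the others, and it was not called with median-ratio size factors or quantile normalization. Trpm5 (11.7 kb away) and Slc22a18 (46.7 kb away) were under the filter at both stages.
At the Kcne1 locus, Rcan1, a calcineurin inhibitor that starts beyond a gap of 32.5 kb, went from 21.3 ± 6.73 to 146.3 ± 5.77 RPKM in icKO (log2 fold change 2.82; limma, adjusted p = 1.70e-06), opposite to Kcne1. Smim11, 32.9 kb away on the other side, had 23.3 ± 1.61 and 16.9 ± 1.65 and a log2 fold change of -0.46, short of the call. With median-ratio size factors it was called lower at -1.03, but not with the other 2 scalings. Clic6 was under the filter.
At the Kcnh2 locus, Nos3, the endothelial nitric oxide synthase 13.2 kb away, had 0.405 to 0.859 RPKM in adult Ctrl and 1.234 to 2.394 in icKO and was called higher at 1.31 as deposited, but not with median-ratio size factors or quantile normalization. Nupl2 was at 0.88 and Klhl7 at 0.15, neither called, and Atg9b was under the filter. On RPKM as deposited, none of the neighbours that were tested was called lower at either stage. Of all genes tested, 0.542% were called lower at E10.5 and 8.45% at 4 weeks.

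Of the 3 genes, the RefSeq promoter table (GRCm38.p6) held an entry for Kcnh2, the gene with the most negative adult log2 fold change. It belongs to the internal start of the shorter of 2 coding transcripts, at chr5:24329591, and gene-level RPKM do not separate the transcripts. The 250 bases before that start, chr5:24329592-24329841 on the minus strand, are given with capitals at each GGGCGG, the Sp1 GC box.
Kcnh2 promoter: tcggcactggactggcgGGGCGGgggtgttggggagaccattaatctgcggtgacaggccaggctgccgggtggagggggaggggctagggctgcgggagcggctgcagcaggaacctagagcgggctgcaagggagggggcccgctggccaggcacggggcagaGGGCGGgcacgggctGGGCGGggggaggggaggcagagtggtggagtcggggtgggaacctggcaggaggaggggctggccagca
The stretch has a GC content of 73.6%, and 94.7% of promoters in the table lie below that (median 52.4%). GGGCGG was found 3 times on either strand, and 32.7% of 32851 promoters of that length hold it. The TATA box letters TATAAA were not found in it, and 12.4% of promoters hold them. No CCAAT was found (33.8% of promoters). The GATA factor motif AGATAA was not found either, with 10% of promoters holding it. The E-box, written CANNTG, was not found (66.2% of promoters), nor was the T-box core AGGTGT (11.8% of promoters).

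The genes whose pattern was most like each member were found by Pearson r over the 12 samples, on log2(RPKM + 0.1) centred within each table, among 8909 genes. All points share the same libraries, and the difference between the groups of a table enters the value, so r is given as a description. For Kcnq1 they were Lyrm7 (r = 0.990), Doc2g (0.988) and Gja1 (0.983), the last being connexin 43, the main ventricular gap junction protein. For Kcne1 they were Sema4b (0.963), Angpt1 (0.963) and Zfp961 (0.958). The size of a change does not enter r. Sema4b had log2 fold changes of -0.37 at E10.5 and -0.48 at 4 weeks and was called at neither stage. Angpt1, the angiopoietin 1 ligand, had log2 fold changes of -2.20 at E10.5 and -3.43 at 4 weeks and was called at both stages. For Kcnh2 they were Klhl38 (0.998), Abcc9 (0.991) and Fastk (0.990). Klhl38, a kelch-family gene, had 2.42 ± 0.426 RPKM in E10.5 Ctrl and 1.56 ± 0.156 in cKO, and 22.2 ± 4.51 in adult Ctrl and 0.668 ± 0.368 in icKO (SD, n = 3). Among the members themselves r was 0.931 for Kcnq1 and Kcne1, 0.907 for Kcnq1 and Kcnh2, and 0.776 for Kcne1 and Kcnh2.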

How the data were processed

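The authors deposited 1 table per stage with RPKM per gene and sample. Their methods give GRCm38 as the genome, and the submitters' processing notes list cutadapt 2.6, STAR 2.5.3a, HOMER 4.11.1 and DESeq2 1.12.4. The deposited log2 fold changes and adjusted p-values of their own comparison were not used. Here RPKM were tested as log2(RPKM + 0.1) with limma 3.58.1 (R 4.3.3; trend in the empirical Bayes step) over all genes with a mean RPKM above 1, with Benjamini-Hochberg adjustment, and a fold change on that scale understates the change of low genes. Genes were called where the log2 fold change was beyond 1 in size and the adjusted p below 0.05. Ratios were tested by exact permutation. The code was tested on simulated data. Depth was estimated from genes with 1 annotated transcript, and 3 reads correspond to 0.0355 to 0.0825 RPKM for the 3 genes. This covers counting error only. The members and lists were chosen with earlier results of these data known. Named genes were the 3 members, Med30, called genes of the pathway lists (the 4 largest per direction where more than 8), expressed family genes, 2 neighbours per side, and the 3 genes with the highest r. The values of 1 gene that this rule names are not reported here. Alternatives covered pseudocount, filter, scaling, variance model, replicate block and leaving out each sample. Replicate numbers correlated between groups at -0.07 to 0.153, so they were not taken as pairs.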

Additional observations from a re-analysis of the deposited data

Results flagged for a closer look

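The change in the knockout differed between stages for Kcnq1 and Kcnh2. For Kcnq1 the difference of the log2 fold changes (4 weeks minus E10.5) was -0.73, from -0.73 at E10.5 to -1.46 at 4 weeks, and for Kcnh2 it was -2.26, from -0.27 to -2.53, both past the limma test of the difference (adjusted p = 0.00383 and 4.24e-06). For both genes the adjusted p stayed under 0.05 in each of the 12 fits that left out 1 sample and under each other setting in which they were tested. The median difference over all genes was 0.69. Stage, material (whole hearts or isolated cardiomyocytes), Cre driver and time since deletion change together between the tables and cannot be told apart.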

How the results depend on the processing

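At 4 weeks each of the 3 genes kept its direction and an adjusted p under 0.05 in every setting in which it was tested. Kcne1 could not be tested there with a mean RPKM minimum of 5 or without Ctrl replicate 3, nor Kcnq1 and Kcne1 at E10.5 with that minimum. At E10.5 no member turned direction. Sample weights took Kcnq1 (-0.85, adjusted p = 0.00827) and Kcnh2 (-0.38, 0.0350) past 0.05, and no filter took Kcne1 (-1.33, 0.0633) out. The number of members called at E10.5, 1 as reported, was 0 with a pseudocount of 1, no filter or a minimum of 5, and 0 to 1 with 1 sample left out. Leaving out 1 sample gave Kcne1 -1.53 to -1.17 at E10.5. Over the other settings the adjusted p at E10.5 ranged from 0.00827 to 0.130 for Kcnq1, 0.00474 to 0.0633 for Kcne1 and 0.0350 to 0.751 for Kcnh2, and with 1 sample left out from 0.0686 to 0.207, 0.0321 to 0.111 and 0.166 to 0.535. The Kcne1 difference between stages passed with median-ratio scaling (-1.29), quantile normalization (-1.18) and totals that left out the 20 most abundant genes (-1.07). Its adjusted p was 0.108 to 0.648 over the 7 other settings and 0.0650 to 0.307 with 1 sample left out. The Kcne1 to Kcnq1 log2 ratio at 4 weeks, -0.57 as reported, reversed to 0.26 with a pseudocount of 1. The causes were not tested.

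With the replicate number as a block 1 member was called at E10.5 and 3 at 4 weeks, and over all genes 61 were lower and 32 higher at E10.5 (59 and 26 without it). It changed no call of a member, and same-numbered samples were not each other's best match throughout. For the ratios the paired mean difference equals the unpaired one by construction, and 3 pairs cannot go below an exact sign-flip p of 0.25. Over all genes, counts called lower ranged from 34 to 100 at E10.5 and from 454 to 1511 at 4 weeks (804 as reported, with 2668 higher), the highest with median-ratio scaling, where 1053 were higher. With 1 E10.5 sample left out, 18 to 102 were lower. Depth limits Kcne1 most, with 12 to 29 reads behind its icKO values.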

Other observations

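Within the icKO group the sample with the least Med30 was not the one with the least channel transcript: replicate 3 had 1.825 RPKM of Med30 and 5.094 of Kcnh2, whereas replicate 1 had 3.812 of Med30 and 3.074 of Kcnh2. In icKO replicate 1 Kcne1 was highest, at 0.542 RPKM, and Kcnq1 was lowest, at 4.185. Gene-level Med30 values do not separate the floxed first exon from the rest of the gene. With 3 samples this order was not tested.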
